A study of Mus musculus with 2 samples.

Results

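The genes of the extracellular matrix of the mouse adrenal gland are described here: collagens, laminins, and the fibronectin, elastic fibre, proteoglycan and linker genes found in the capsule and in basement membranes. They were taken by symbol, as protein-coding genes whose name starts with Col, Lama, Lamb or Lamc followed by a digit, or is Fn1, Eln, Fbn1, Dcn, Lum, Bgn, Mgp, Dpt, Sparc, Nid1, Nid2 or Hspg2. The rule found 68 genes of the 55536 in the tables, among 22015 protein-coding genes of the nuclear chromosomes. Of these, 44 were collagens, 11 were laminins and 12 were the other matrix genes. The last, Col4a3bp, matched by its symbol only, since it encodes a ceramide transfer protein and not a collagen.

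Total RNA was sequenced in 2 adrenal gland libraries from female adult mice, 8 to 10 months old, from a cross of 5xFAD with CAST. 5xFAD is a transgenic line that carries human transgenes with familial Alzheimer's disease mutations under the neuronal Thy1 promoter, and CAST is a wild-derived inbred strain. Both libraries belong to 1 group with no control. The labels number them as separate biological replicates but give both the same donor identifier. From the replicate numbers they are taken here as 2 mice, and n = 2 counts libraries. The spread between them may be in part or wholly technical. Whole glands were used, and in bulk tissue fewer cells of a type and less RNA per cell cannot be told apart.

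Collagens are trimers wound from chains in which glycine opens each triplet of residues along the helix. Fibrillar collagens form the cables of the capsule and of vessel walls, type IV collagen forms the sheet of basement membranes, and type VI forms beaded filaments beside cells. Laminins are trimers of an alpha, a beta and a gamma chain, which the linkers nidogen and perlecan tie to type IV collagen. The adrenal gland has a fibrous capsule, and its cords of steroid-making cells lie against a dense bed of capillaries with their own basement membrane.

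The glycine repeat can be read in the coding sequence as GGN codons spaced 3 codons apart, and it shows what the symbol rule picked. The stretches below are 90 coding bases each, from the mm10 annotation, 5′ to 3′ in the sense of the gene. Capitals mark GGN codons that have another GGN codon 3 codons away. The first 3 are unbroken repeats from chains that led their families in level, the fourth spans one of the breaks that mark type IV chains, and the last is the gene that matched by symbol only.
Col5a3: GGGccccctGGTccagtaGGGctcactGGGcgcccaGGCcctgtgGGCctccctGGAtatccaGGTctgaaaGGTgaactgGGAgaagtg
Col1a2: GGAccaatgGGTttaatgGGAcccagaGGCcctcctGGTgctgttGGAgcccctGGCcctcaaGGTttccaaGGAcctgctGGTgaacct
Col6a1: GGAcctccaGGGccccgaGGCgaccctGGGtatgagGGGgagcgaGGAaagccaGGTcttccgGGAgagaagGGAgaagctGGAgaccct
Col4a1: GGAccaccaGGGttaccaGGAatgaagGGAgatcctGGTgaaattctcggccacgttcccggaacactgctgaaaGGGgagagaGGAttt
Col4a3bp: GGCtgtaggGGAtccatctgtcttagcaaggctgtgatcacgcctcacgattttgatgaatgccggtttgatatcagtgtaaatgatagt
They lie in exons 14 to 15 of Col5a3 (chr9:20801077-20801260, minus strand), exons 6 to 8 of Col1a2 (chr6:4512406-4515516, plus strand), exons 8 to 9 of Col6a1 (chr10:76719623-76720996, minus strand), exons 8 to 9 of Col4a1 (chr8:11244507-11245084, minus strand) and exons 2 to 3 of Col4a3bp (chr13:96549290-96571958, plus strand). All 44 collagens had a longest unbroken run of at least 23 triplets, the fewest being in Col26a1 and the most, 344, in Col3a1, with a median of 58.5. Among the other 24 members the longest run had 17 triplets, in Eln, and Col4a3bp had 2. Col5a3 held 337 triplets in 1 run and Col1a2 held 339, while the longest run in Col4a1 was 40, with 22 runs of at least 5 triplets.

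Most of the matrix genes were detected, and the levels were set by a few of them. At 1 TPM or more in both mice there were 47 of the 68 genes (69.1%), beside 11913 (54.1%) of the nuclear protein-coding genes. TPM, a level scaled to gene length and library size, lets genes be compared with each other. The median over the 68 genes was 3.88 TPM in mouse 1 and 3.83 TPM in mouse 2, beside 1.72 and 1.97 over the nuclear protein-coding genes. Together they held 0.459% and 0.422% of the nuclear protein-coding TPM, a mean of 0.441% ± 0.026 (SD, n = 2). The 10 highest genes held 79.4% of the set's TPM in mouse 1 and 77.4% in mouse 2. No member had 0 counts in both mice, but Col9a1 and Col10a1 were at 0 counts in mouse 1 and Col17a1 and Col24a1 in mouse 2, where 0 counts allow up to 0.0821 and 0.0932 CPM (counts scaled to library size).

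**Figure D1:**
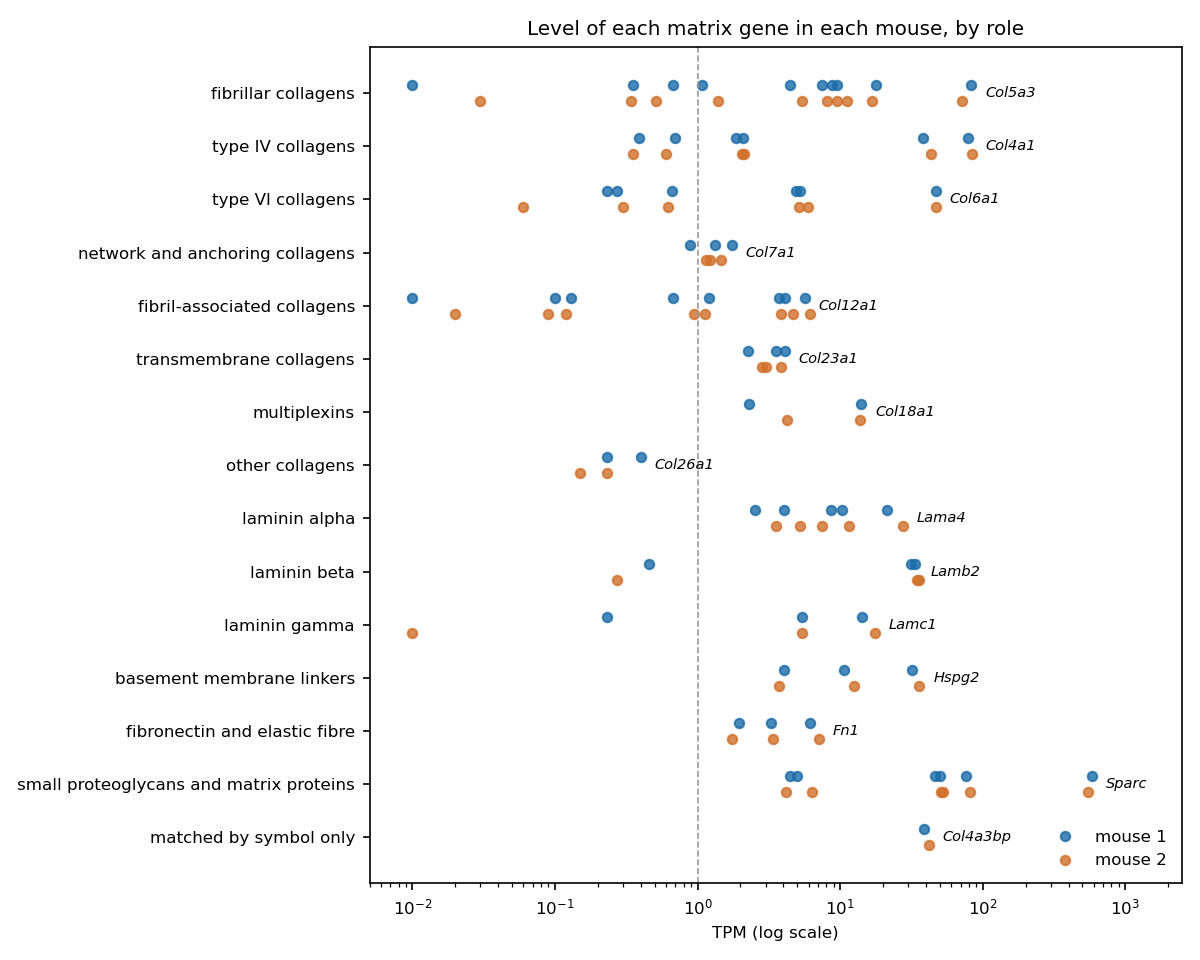
TPM of each matrix gene on a log scale, by role, with mouse 1 in blue and mouse 2 in orange; the 64 genes above 0 TPM in both mice are drawn, the dashed line marks 1 TPM and the highest gene of each role is named. Sparc stood at 581.39 and 548.31 TPM, above every other member.

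Sparc, a secreted glycoprotein that binds collagen, was by far the highest member. It was at 581.39 TPM in mouse 1 and 548.31 in mouse 2 (565 ± 23.4, SD, n = 2), and ranked 27th among the nuclear protein-coding genes. It alone held 43.0% and 40.2% of the set's TPM, and without it the set's share of nuclear protein-coding TPM was 0.262% and 0.252%. Biglycan (Bgn) was at 76.89 and 81.40 TPM, matrix Gla protein (Mgp), an inhibitor of calcification, at 49.85 and 52.49, and decorin (Dcn) at 46.16 and 50.92. Bgn and Dcn encode small leucine-rich proteoglycans that bind collagen fibrils. Lumican (Lum), of the same family, was much lower, at 4.98 and 4.19 TPM, so that Dcn exceeded it 10.7 ± 2.04-fold (SD, n = 2). Dermatopontin (Dpt), a small matrix protein that binds decorin, was at 4.48 and 6.31 TPM.

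Among fibrillar collagens the highest was Col5a3, the alpha-3 chain of type V collagen, at 83.44 TPM in mouse 1 and 72.04 in mouse 2. That was 62.6% and 57.6% of the TPM of the 11 fibrillar genes, and its expected counts were 20284 and 14145. The other chains of type V were far below it: Col5a1 was at 8.76 and 9.57 TPM and Col5a2 at 1.08 and 1.38. Col5a3 exceeded Col5a1 by 8.53 ± 1.41-fold (SD, n = 2), a comparison chosen after its values were seen. The classical chains of capsule fibrils were lower than Col5a3 in both mice. Col1a2 was at 17.71 and 16.65 TPM, Col1a1 at 7.44 and 8.08 and Col3a1 at 9.46 and 11.15. Type I collagen is usually a trimer of a pair of alpha-1 chains with 1 alpha-2 chain, and the RNA ratio of Col1a1 to Col1a2 was 0.453 ± 0.046 (SD, n = 2), below 1 in each mouse. Col27a1 was at 4.47 and 5.37 TPM. The cartilage chain Col2a1 had 2 and 4 counts.

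Type IV collagen RNA was nearly all Col4a1 and Col4a2, the chains of the basement membranes found in every tissue. They held 95.9% of the type IV TPM in mouse 1 and 96.2% in mouse 2. Col4a1 was at 79.26 and 84.15 TPM and Col4a2 at 38.31 and 43.38, a ratio of 2.00 ± 0.09 (SD, n = 2). The second deposited quantification gave that ratio as 3.26 ± 0.08, with Col4a1 at 119 ± 8.13 TPM against 81.7 ± 3.46 in the gene table. In the gene table's TPM a 545-base transcript, Col4a1-203, took 22.9% and 24.3% of Col4a1, while the full-length Col4a1-201 held 69.3% and 74.7%. By counts, Col4a1-203 had 328.99 of 15028 in mouse 1 and 299.18 of 13766 in mouse 2. In the second quantification Col4a1-201 held 42.5% and 44.1%. A 416-base transcript, Col4a1-204, took 21.5% and 28.2% there and 0% in the gene table. With the leading coding transcript alone the ratio was 1.45, so its size was not fixed by these data, though it was above 1 in every form computed. The chains of specialised basement membranes were low: Col4a4 was at 2.08 and 2.05 TPM, Col4a5 at 1.87 and 2.10, Col4a3 at 0.70 and 0.60 and Col4a6 at 0.39 and 0.35.

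Type IV genes stand in pairs on opposite strands, and the pairs' members differed in level. Col4a6 and Col4a5 on the X chromosome had starts 1309 bases apart, with Col4a6 at 0.209 and 0.167 times the TPM of Col4a5. The other pairs had starts within 1000 bases, the limit used here for a head-to-head pair. Col4a1 (chr8:11198423-11312826, minus strand) and Col4a2 (chr8:11312805-11449287, plus strand) overlapped by 22 bases at their starts. Col4a4 (chr1:82448423-82586849, minus strand) and Col4a3 (chr1:82586921-82722059, plus strand) were 71 bases apart, yet Col4a4 was 2.97 times Col4a3 in mouse 1 and 3.42 times in mouse 2. In the second quantification it was 1.77 and 2.26 times Col4a3. The bases between those starts are shown because both genes are transcribed away from them; they are read on the minus strand of GRCm38.p6, chr1:82586850-82586920.
Between Col4a4 and Col4a3: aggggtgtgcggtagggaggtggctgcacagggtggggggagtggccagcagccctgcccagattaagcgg
The TATA box letters (TATAAA), the CAAT box letters (CCAAT) and the GC box letters (GGGCGG) were looked for on both strands and none was found, which says only that these letters are not in this window. A RefSeq promoter window (GRCm38.p6) around the start was at hand for 46 members and for 16522 genes in all. The GC box letters were in 63.0% of the members' windows and 48.0% of all windows, the CAAT box letters in 30.4% and 38.8%, and the TATA box letters in 13.0% and 12.8%.

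In type VI collagen, whose classical trimer takes 1 of each of 3 chains, the alpha-1 RNA was far above the others. Col6a1 was at 46.72 and 47.00 TPM, Col6a2 at 5.23 and 5.94 and Col6a3 at 4.93 and 5.18. The ratio of Col6a1 to Col6a2 was 8.93 in mouse 1 and 7.91 in mouse 2, and that of Col6a3 to Col6a1 was 0.106 and 0.110, or 0.0573 from the leading coding transcripts alone. Col6a2 and Col6a1 lie on the same strand of chromosome 10, with 85161 bases between them. The alternative chains Col6a5, Col6a6 and Col6a4 were below 1 TPM in both mice.

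**Figure D2:**
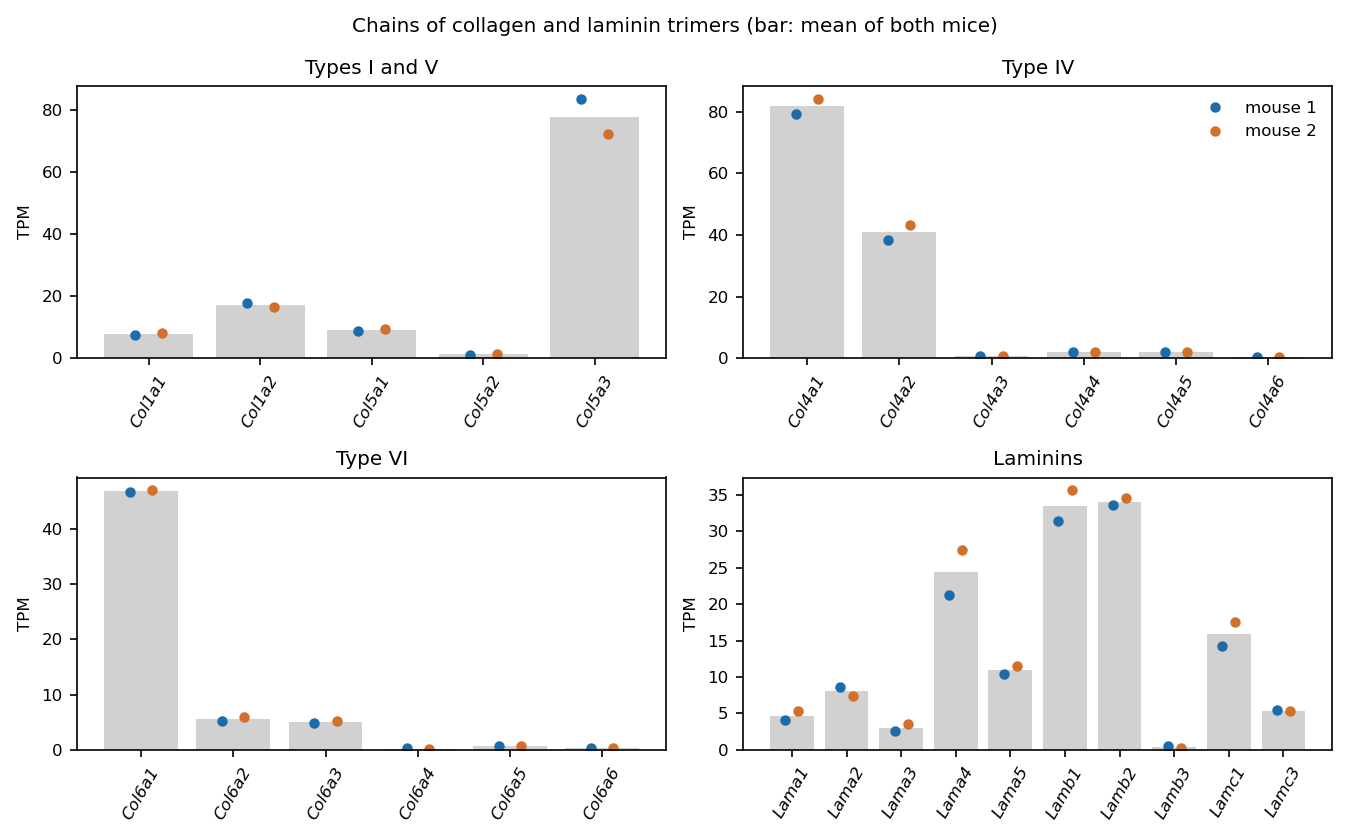
TPM of chains that assemble with each other, for types I and V, type IV, type VI and 10 laminins; grey bars are the mean of both mice and points are mouse 1 (blue) and mouse 2 (orange). Col5a3, Col4a1 and Col6a1 stand above the other chains of their types, while Lamb1 and Lamb2 are level when all transcripts are summed.

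The laminin chains were spread over all 3 chain classes, with both common beta chains at like levels over all transcripts. The beta chains Lamb1 (31.40 and 35.61 TPM) and Lamb2 (33.55 and 34.59 TPM) did not differ beyond the spread between the mice at gene level, with a ratio of 0.983 ± 0.066 (SD, n = 2). From their leading coding transcripts alone the ratio was 1.48. Lamc1, the gamma chain shared by most laminins, was at 14.29 and 17.60 TPM, 71.7% and 76.6% of the gamma-chain RNA. Among alpha chains Lama4, known from vessel walls, was highest at 21.32 and 27.47 TPM, followed by Lama5 at 10.37 and 11.46, Lama2 at 8.56 and 7.44, Lama1 at 4.03 and 5.27 and Lama3 at 2.53 and 3.55. All 5 alpha chains passed 1 TPM in both mice. Transcripts not annotated as protein-coding held 54% and 47.1% of the Lama5 TPM, 37.5% and 34.8% of Lama2 and 27.9% and 36.4% of Lama1. For Lama4 they held 28.7% and 29.6%, and for Lama3 0%. Shares of TPM are scaled to transcript length, so short transcripts with few counts weigh heavily. By counts, the coding Lama5-201 held 2191.63 of 2308 in mouse 1 and 2247.71 of 2333 in mouse 2. In the second quantification the shares were 27.1% and 10.4% for Lama5, 27.6% and 31.2% for Lama2 and 4.26% and 20.4% for Lama1. For Lama4 they were 16.3% and 14.1% there. The order of the alpha chains below Lama4 is thus uncertain. Lamb3, a beta chain known from epithelia, had only 75 and 43 counts. It also overlaps Hsd11b1 on the opposite strand, which had a mean of 946.5 counts. The kit was directional, and whether reads of Hsd11b1 entered the few counts of Lamb3 was not tested.

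The genes that tie laminin to type IV collagen followed. Perlecan (Hspg2) was at 31.75 and 36.01 TPM. Nidogen-1 (Nid1) was at 10.73 and 12.48 TPM and nidogen-2 (Nid2) at 4.01 and 3.73, so Nid1 was 3.01 ± 0.474 times Nid2 (SD, n = 2). Fibronectin (Fn1), which cells lay down in fibrils, was at 6.14 and 7.06 TPM, fibrillin-1 (Fbn1) at 3.26 and 3.37 and elastin (Eln) at 1.96 and 1.73.

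Of the remaining collagens, Col18a1, a basement membrane collagen whose end fragment is endostatin, was highest at 14.06 and 13.80 TPM. Col15a1, its closest relative, was at 2.29 and 4.24. The fibril-associated Col12a1 (5.67 and 4.69 TPM), Col14a1 (4.12 and 6.18) and Col16a1 (3.74 and 3.83) and the transmembrane Col23a1 (4.10 and 3.83), Col13a1 (3.53 and 3.03) and Col25a1 (2.26 and 2.82) were all between 2 and 7 TPM. Col7a1, the chain of anchoring fibrils, and Col8a1 and Col8a2, known from vessel walls, lay between 0.88 and 1.74 TPM. Transcripts not annotated as protein-coding held 67.81% and 60.65% of the Col7a1 TPM, 45.99% and 56.09% of Col16a1 and 51.48% and 40.19% of Col25a1. For Col7a1 that share rests on few counts, since the coding Col7a1-201 held 207.07 of 224 in mouse 1 and 170.83 of 182 in mouse 2. In the second quantification the shares were 62.3% and 47.1% for Col7a1, 25.2% and 55.3% for Col16a1 and 56.4% and 49.3% for Col25a1. Of chains known from cartilage, Col9a1, Col9a2, Col9a3 and Col10a1 had at most 15 counts in either mouse. The fibrillar Col11a1 had 105 and 99 counts and Col11a2 had 50 and 46, all below 1 TPM.

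The mice were then compared gene by gene, as the log2 ratio of mouse 2 to mouse 1 on counts scaled by TMM. Genes averaging 10 counts or more over the mice were tested, 17666 in all, which took in 60 members and left out 8. Two-sided exact binomial tests of the counts, adjusted by Benjamini-Hochberg over all 17666 genes, compare these libraries and cover counting error only. No member was 2-fold higher in mouse 2, beside 1.15% of all genes, and 2 (3.33%), Col6a4 and Col26a1, were 2-fold lower, beside 1.81%. Beyond counting noise 8 members (13.3%) were higher, beside 10.4% of all genes, and 14 (23.3%) were lower, beside 11%. Scaled by total counts the split was 13 higher and 13 lower, beside 17.0% and 7.67% of all genes. Of these same calls, among genes averaging 100 counts or more, 8 of 51 members were higher and 12 lower (15.7% and 23.5%), beside 13.2% and 13% of all such genes. No member among them was 2-fold apart, beside 0.224% higher and 0.296% lower. With scaling and adjustment redone on such genes alone, Col25a1 was also called higher, and Col22a1 and a laminin gene lower. The shares over all such genes were then 13.4% higher and 14.3% lower. The median log2 ratio of the 60 was −0.05 and the median absolute log2 ratio 0.18, beside 0.00 and 0.13 over all genes tested.

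**Figure D3:**
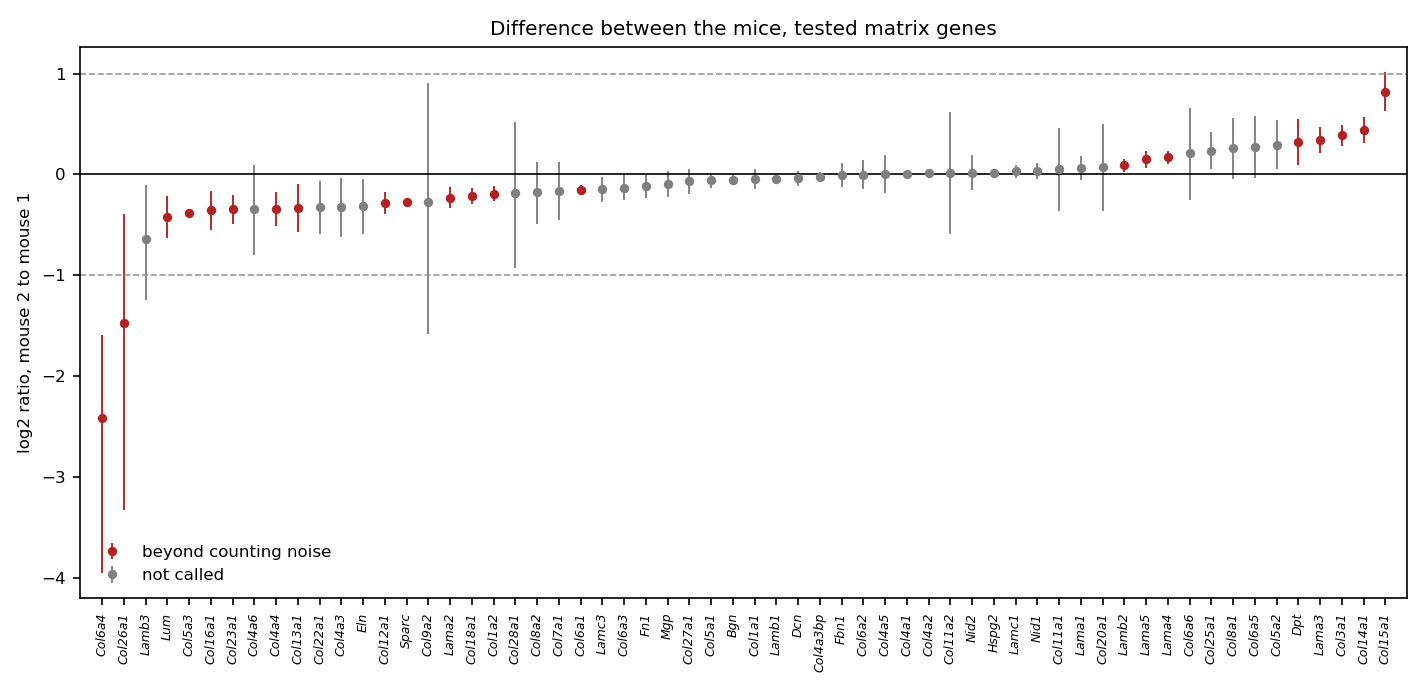
Log2 ratio of mouse 2 to mouse 1 for the 60 tested matrix genes, ordered by ratio, with 95% counting intervals; red points differed beyond counting noise and dashed lines mark 2-fold. Col15a1 has the highest ratio, 0.82, and Col6a4 and Col26a1, the least counted of those in red, lie below the lower line.

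The largest difference among well-counted members was in Col15a1, with 368 counts in mouse 1 and 593 in mouse 2. Its log2 ratio was 0.82 (95% counting interval 0.63 to 1.01; binomial test, adjusted p = 1.4e-16). Col14a1 (875 and 1081 counts) and Col3a1 (1377 and 1642 counts) were also higher in mouse 2, with log2 ratios of 0.44 and 0.39. These were the 3 collagens called higher of 37 tested, while 11 were called lower, beside 10.4% and 11% of all genes. Scaled by total counts, Col25a1, Col4a1, Col4a2 and Col5a2 were also called higher, and Col13a1 lost its lower call. With ERCC scaling Col22a1 was also called lower. It was called lower too when the fit was redone on genes averaging 100 counts or more, where Col25a1 was called higher. In the second quantification Col25a1 was called higher and Col4a3 and Col6a3 lower. The lower calls included the most abundant fibrillar chain, Col5a3, at −0.39, and Col1a2 at −0.19, so that fibrillar chains were called in both directions. Lum, with 476 and 323 counts, was at −0.42 and Sparc at −0.27, while Dpt, with 296 and 337 counts, was called higher at 0.32. Col6a4 had 56 and 8 counts and Col26a1 22 and 6, which gives log2 ratios of −2.42 and −1.47 with wide counting intervals.

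Of the 10 laminins tested, 4 were called higher in mouse 2 and 1 lower, beside the 10.4% and 11% of all genes. The higher ones were Lama3 (0.34), Lama4 (0.17), Lama5 (0.15) and Lamb2 (0.09), and the lower one was Lama2 (−0.23). The Lamb2 call was lost with ERCC scaling (adjusted p = 0.10) and without the count filter (adjusted p = 0.11), which left 3 higher. Another laminin was called lower with ERCC scaling, and also when the fit was redone on genes averaging 100 counts or more. Whether laminins and collagens differ in this was not tested. The core type IV chains Col4a1 and Col4a2 both had log2 ratios of 0.01, within counting noise, and Hspg2 was at 0.02. Scaled by total counts all 3 were called higher, at 0.06, 0.06 and 0.07, and with ERCC scaling their ratios were below 0 and not called. Of the paired Col4a4 and Col4a3, at −0.34 and −0.32, only Col4a4 passed the test, while in the second quantification Col4a3 passed it too, at −0.40. TPM and count ratios are not the same quantity here. In part, nuclear protein-coding genes held 29.5% of all TPM in mouse 1 and 32.3% in mouse 2. The gap also differed by gene: Col16a1 was at 3.74 and 3.83 TPM, with a count log2 ratio of −0.36.

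**Figure D4:**
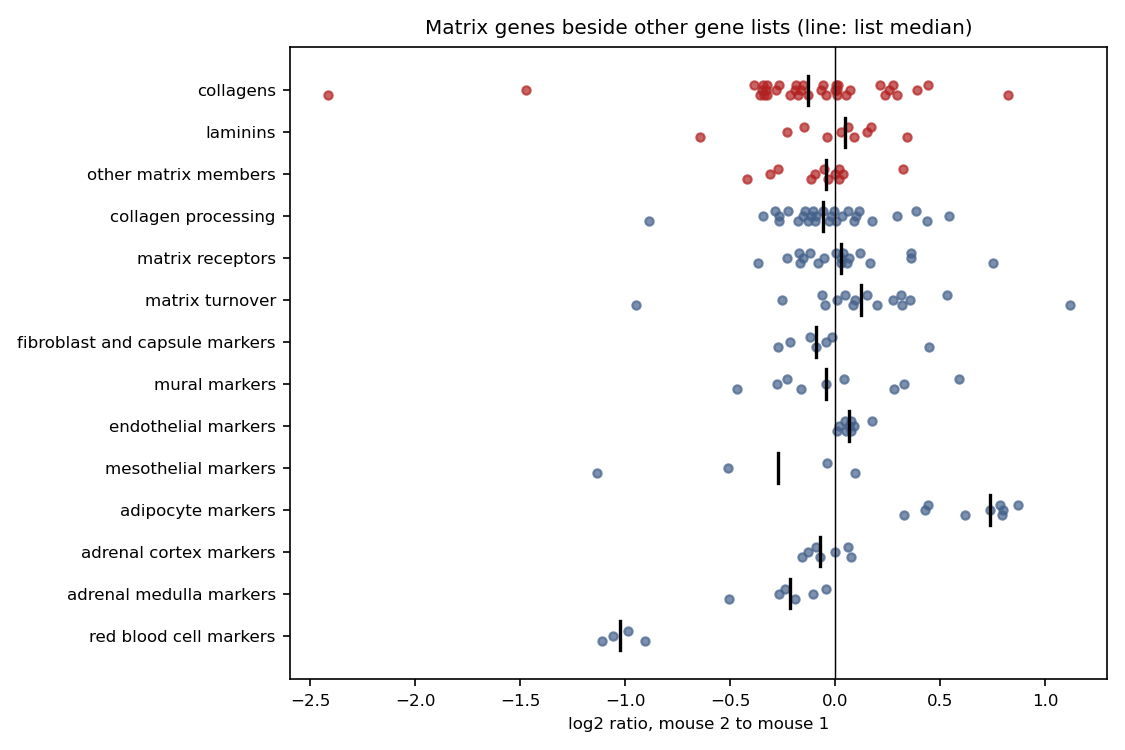
Log2 ratio of mouse 2 to mouse 1 for each tested gene of the matrix set (red) and of other gene lists (blue), with a black line at each list's median. Adipocyte markers, at a median of 0.74, and red blood cell markers, at −1.02, lie apart from the matrix genes, whose collagen median is −0.13 and laminin median 0.04.

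Markers of other cell types moved between the mice. All 9 adipocyte markers were above 0, 8 passed the test, and their summed level was 1501 TPM in mouse 1 and 2534 in mouse 2. All 4 red blood cell markers were lower in mouse 2, at a median log2 ratio of −1.02. Fibroblast and capsule markers had a median of −0.09, with 1 of 7 called: Pdgfra, lower, at −0.27. Endothelial markers had a median of 0.06, with 1 of 9 called. The part of these cells in the matrix differences was not tested. Adrenal medulla markers had a median of −0.22, with 5 of 6 called lower, and 2 of 4 mesothelial markers were called lower, Upk3b at −0.51 and Upk1b at −1.13. Of the cartilage markers Matn1 was at 0 in both mice and Matn3 had 0 and 2 counts, while Acan, with 152 and 115 counts, and Hapln1, with 119 and 98, were below 1 TPM in both. The keratinocyte marker Krt5 was at 0. Adrenal cortex markers summed to 20422 and 22033 TPM, with a median log2 ratio of −0.08, 2 of 7 called higher and 4 lower. Mural markers had a median of −0.05, with 3 of 9 called higher and 1 lower.

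Of 30 collagen processing genes 21 passed 1 TPM in both mice, led by Pcolce, an enhancer of procollagen cleavage, at 379.10 and 379.40 TPM, and P4hb, a subunit of the enzyme that hydroxylates proline, at 157.82 and 150.72. Of the 29 tested, 2 were called higher in mouse 2 and 6 lower, again beside 10.4% and 11% of all genes, with Pcolce at −0.27 and the chaperone gene Serpinh1 at 0.11. Of 19 matrix receptors 5 were higher and 4 lower, and the most abundant was the integrin chain Itgb1, at 66.12 and 75.93 TPM. Of 16 tested turnover genes 3 were higher and 1 lower. For the receptor and turnover lists too, the shares over all genes were 10.4% and 11%. Timp3, an inhibitor of metalloproteinases that stays in the matrix, was highest at 142.16 and 171.67 TPM, and Mmp14, a membrane-bound protease, was the one called lower, at −0.25. Timp4, of the same inhibitor family as Timp3, had 48 and 97 counts and a log2 ratio of 1.12, the only gene of these 3 lists that was 2-fold apart.

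In the gene table most of the highest members were read mainly as 1 transcript. Col6a1-201 held 98.7% and 99.5% of its gene's RNA, Mgp-201 99.2% and 98.8%, and Col5a3-201 97.8% and 98.0%. The leading transcripts of Sparc (Sparc-202, 66.1% and 69.6%) and Dcn (Dcn-201, 68.5% and 71.0%) held less. Fn1, known for alternative splicing, was divided among several. Fn1-203, the highest by mean, held 24.2% and 16.6%, and was not the highest in mouse 2. In the second quantification 7 of 10 leading transcripts checked moved by at least the SD between the mice, 5 down and 2 up. The mean share was 43.3% for Col4a1-201 and 58.3% for Sparc-202 there. In mouse 1 Dcn-202, at 50.4%, was above Dcn-201, at 49.5%.

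Levels were also compared with the second quantification, made from the reads and a transcript index. Of the 48 members averaging 1 TPM or more, none was 2-fold higher or lower in it, beside 0.68% and 4.1% of 13524 genes. Below 1 TPM, Col26a1 was 2-fold higher in it. The differences closest to that threshold were Lama5, at −0.82 on the log2 scale, Lama2 at −0.62, Col12a1 at −0.56 and Col4a1 at 0.54. Col4a1 was thus higher in the second quantification, and the laminin alpha chains were lower.

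**Figure D5:**
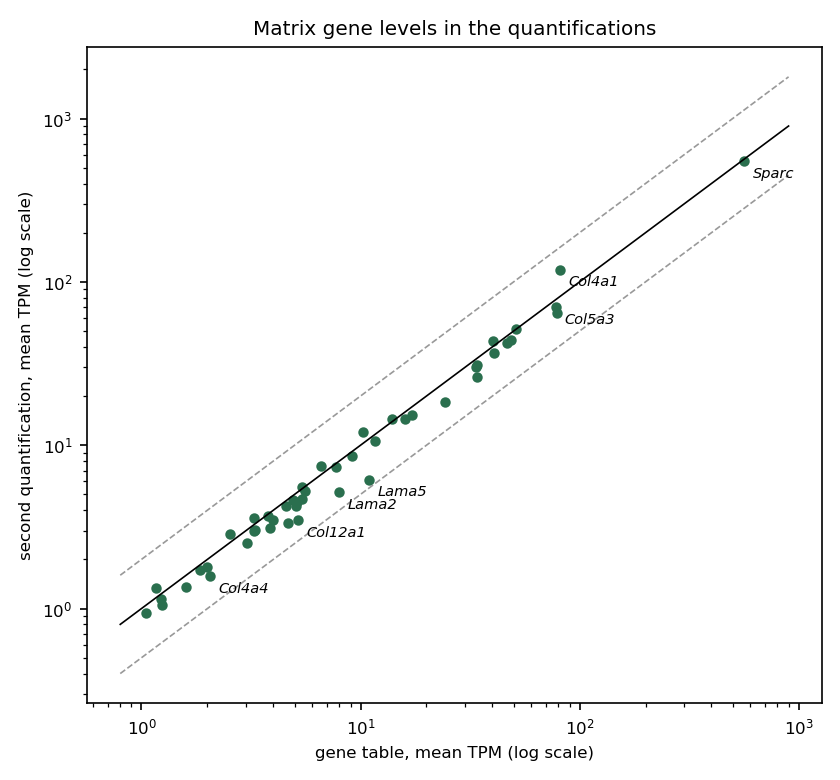
Mean TPM of the 48 matrix genes at 1 TPM or more, in the gene table and in the second quantification, both on log scales; the solid line is equality and the dashed lines mark 2-fold. No point lies beyond the dashed lines, with Lama5 nearest the lower one.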

How the data were processed

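Total RNA of adrenal gland was sequenced in 2 libraries of 1 group. Each used 300 ng with ERCC spike-in RNA, rRNA reduction and a directional kit, per the labels' protocols. The tables use mm10 with GENCODE M21, per the file headers and labels; which aligner and quantifier were used is not given in sources used here. The authors deposited expected counts (estimated, so not always whole), TPM and FPKM per gene and transcript, and the percent of each gene held by each transcript, per the file headers. A second deposited transcript table with estimated counts and TPM was summed to genes. Reads of CAST alleles were placed on another strain's reference. Mouse 1 had 36558609 expected counts assigned to genes and mouse 2 had 32192201.

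Log2 ratios used TMM in edgeR 4.0.16 (R 4.3.3), a prior count of 2 and genes averaging 10 counts or more. Expected counts were rounded for the exact two-sided binomial tests, adjusted by Benjamini-Hochberg at 0.05; intervals are Clopper-Pearson at 95% and, like the floor of 3 counts for a value of 0, cover counting error only. With 1 group no test between groups was made. DESeq2 1.42.0 gave an alternative scaling. The remaining work ran in Python 3.11.15 with scipy 1.17.1, pandas 2.3.3, numpy 2.4.6 and matplotlib 3.10.9. Tested on simulated counts of 17666 genes for mouse 2 against mouse 1, the binomial test called 61.8% of 68 genes changed 1.5-fold, 83.3% of 54 changed 2-fold, 78.2% of 78 changed 3-fold and 0.0286% of 17466 unchanged ones. The unchanged ones had a median absolute log2 ratio of 0.06, beside 0.13 over the real genes tested. The simulated spread was thus narrower, and these rates do not give the error rate of the calls made here.

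The members and gene lists were chosen with earlier results of these data known. Named members were the 4 highest in TPM of each role, all at least 2-fold apart between mice or quantifications, the 6 largest ratios at a mean of 100 counts or more, members at 0 in both mice, and both genes of each chain ratio and head-to-head pair; of the other lists, the 3 highest in TPM and those 2-fold apart between mice. Any further gene was picked with its values in view. The values of 1 laminin gene are not reported here.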

Additional observations from a re-analysis of the deposited data

How the results depend on the processing

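No paired analysis was possible because both libraries belong to 1 group. Leaving out 1 mouse gave 47 to 48 members at 1 TPM or more, 0.422% to 0.459% of nuclear protein-coding TPM, a median of 3.83 to 3.88 TPM, and ratios of 0.420 to 0.485 for Col1a1 to Col1a2, 1.94 to 2.07 for Col4a1 to Col4a2, 7.91 to 8.93 for Col6a1 to Col6a2, 0.106 to 0.110 for Col6a3 to Col6a1, 0.936 to 1.03 for Lamb1 to Lamb2 and 2.02 to 2.20 for Lamb1 to Lamc1, and 0 members 2-fold apart between the quantifications. No value changed sign among called members. Without a count filter 1 member was 2-fold higher in mouse 2 (1346 of all genes in place of 204), and at a mean of 100 counts or more 0 were 2-fold lower, since Col6a4 and Col26a1 were not tested. Total count scaling, which moved the median of all genes by 0.05, gave 13 members higher beyond counting noise in place of 8, while the count over all genes went from 1835 to 3001. Of the 22 members called, 18 kept their call under every alternative that tested them, and Col13a1, Col26a1, Dpt and Lamb2 did not. At 5 TPM or more in both mice there were 25 members. The median over the members was 3.29 TPM in the second quantification, 4.09 as FPKM and 12.5 when TPM was rescaled to nuclear protein-coding genes. The second quantification gave 3.26 for Col4a1 to Col4a2 and 0.0993 for Col6a3 to Col6a1, and without a TPM filter 1 member, Col26a1, was 2-fold apart.

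These alternatives were chosen after seeing the data. Without Sparc the members' share was 0.257%. The chain ratios were first recomputed from the longest coding transcript alone, which gave 0.4996 for Col1a1 to Col1a2, 1.45 for Col4a1 to Col4a2, 1.48 for Lamb1 to Lamb2, 90.4 for Col6a1 to Col6a2 and 0 for Col6a3 to Col6a1. The last values arose because the longest transcript of Col6a2 held 10.3% and 8.18% of that gene and that of Col6a3 held 0%. The leading coding transcript was therefore added after those values were seen; it was the same transcript for the other genes and gave 9.56 for Col6a1 to Col6a2 and 0.0573 for Col6a3 to Col6a1. Each ratio stayed on the same side of 1 as the gene-level one except Lamb1 to Lamb2, which was 0.983 at gene level.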
